A study of Arabidopsis thaliana with 4 samples.

Results

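Plates TA52 to TA99 are the last 48 plates of set TA, 1 of the sets of genomic tiles on a 2-colour array used to map the histone mark H4K20me1 in Arabidopsis thaliana. Tiles are named by plate, row letter and column, and a tile belongs here if its plate number is 52 to 99 and it held a value in both replicates. Of 4608 such names, 4603 tiles had values, which is 21.2% of the 21743 valued tiles on 231 plates. The 5 empty names lay in TA60 (2 wells) and TA64 (3 wells), and the other 46 plates had values in all 96 wells. The lower bound of the range was set by measured values. Plates TA35 to TA51 before it were the last run of plates with high ratios in set TA. The low level of TA52 to TA99 relative to those plates was therefore fixed by the choice and is given as a description.

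The samples were 10 day seedlings of ecotype Col-0, grown untreated in liquid medium at 22 °C with a 16 h photoperiod. An antibody against H4K20me1 was used to pull down chromatin, and the DNA recovered (IP) shared each array with DNA of the starting chromatin (INPUT). The only group had 2 replicates, called I and II, each hybridised in both dye orientations, so 4 arrays in all. Seedlings were whole, so a lower share of cells with the mark and less mark per cell cannot be told apart. Separate cultures are not named for the replicates in the labels, and the spread between them may be technical.

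H4K20me1 is the form of histone H4 that carries a single methyl group on a lysine of its tail. In animals a dedicated enzyme sets it, its amount changes through the cell cycle, and it has been linked to chromatin compaction. In Arabidopsis nuclei, staining has placed the mark in condensed heterochromatin, the chromatin rich in repeats and transposons around centromeres. Whether any tile of TA52 to TA99 lies near such chromatin was not analysed here, since a tile's name is its plate and well, with neither gene, position nor sequence attached. Regions are therefore named by plate and well, sorted by name, and whether that order follows the genome is not stated in the labels or the table.

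The paired dye-swap columns were identical in every spot, so each replicate gave 1 value per tile and n = 2 throughout. Values are log ratios whose base and numerator are not stated. The likely direction is IP over INPUT, only because, over all tiles, the upper tail was the longer: the top 1% started at 1.54 (replicate I) and 1.35 (replicate II) from the median, and the bottom 1% at -1.16 and -1.12. With the sign turned, every high well becomes a low one. All values below are minus the median of their replicate over all 21743 tiles, which was -1.42 (replicate I) and -1.15 (replicate II). The number of arrays limits the precision.

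With all tiles as the reference, TA52 to TA99 as a whole lay near the median of the array. Its tiles had a median of 0.041 (replicate I) and 0.016 (replicate II), on average 0.029 ± 0.018 (SD, n = 2). That average was 0.094 with centring on the mode and 0.13 with centring on the tiles outside the 3 stretches of high plates (TC17 to TC30, TA35 to TA51, TA21 to TA30). In replicate I the middle part of the tiles, between the lower and the upper quartile, ran from -0.33 to 0.44, and in replicate II it ran from -0.31 to 0.33. Single tiles ranged from -1.94 to 2.80 in replicate I and from -1.65 to 2.04 in replicate II. The spread between tiles (SD 0.54 and 0.47 in replicates I and II) was thus far larger than these medians.

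The adjoining plates TA51 and TA52 mark the lower bound of the range. TA52, the first plate inside it, had a median of 0.19 (replicate I) and 0.11 (replicate II), against 0.92 and 0.61 in TA51, the last plate outside. The high ratios did not stop at the plate border itself. Wells TA52A01 to TA52A05 had 1.32, 1.66, 1.76, 1.17 and 1.03 in replicate I and 0.83, 1.16, 1.18, 0.56 and 0.83 in replicate II. They continued a run that began at TA51H09, so that 9 consecutive wells lay above 0.5 in both replicates, 4 of them in TA51. From TA52A06 to TA52A09 replicate I ran from -0.25 to 0.30, while replicate II stayed between 0.30 and 0.52. Further down the plate the level varied with no steady fall. Row C had medians of 0.39 (replicate I) and 0.50 (replicate II), row E, the lowest, -0.41 and -0.42, and row F 0.18 and 0.22. At the other end no such step was seen: TA99 had medians of 0.054 and -0.065, against -0.059 and -0.24 in TB00, the first plate of the next set.

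The level was higher in the early plates than in the later ones. In groups of 8 plates, the median in replicate I was 0.24 in TA52 to TA59, 0.17 in TA60 to TA67, -0.0015 in TA68 to TA75, -0.080 in TA76 to TA83, -0.076 in TA84 to TA91 and 0.00074 in TA92 to TA99. In replicate II the same groups had 0.14, 0.060, 0.030, -0.052, -0.066 and -0.050. Both replicates thus had their highest medians in the first 16 plates.

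**Figure D1:**
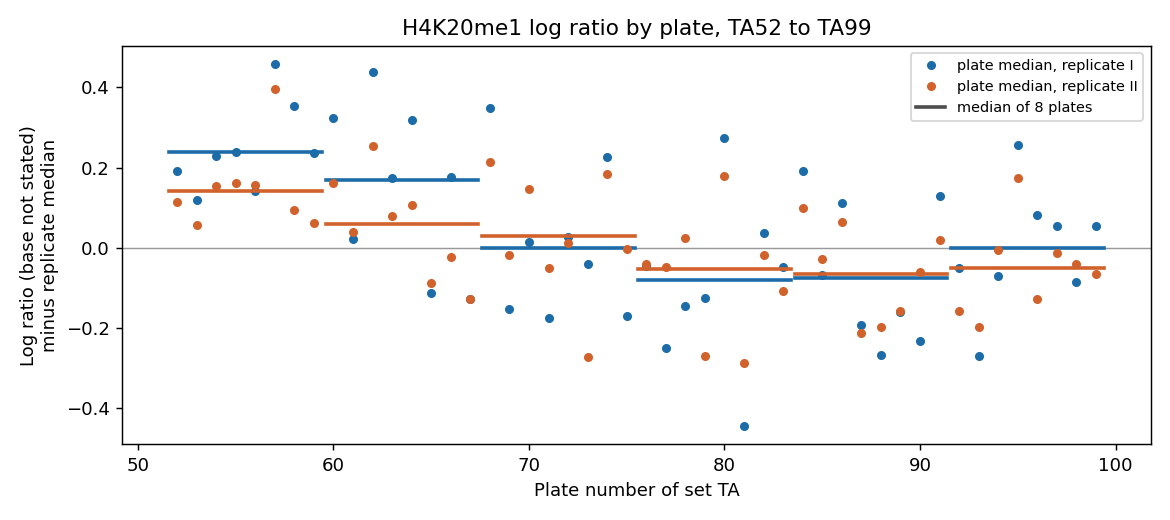
Median log ratio of each plate from TA52 to TA99 (points, vertical axis, minus the replicate median, log base not stated) against plate number (horizontal axis), with bars for the median of each group of 8 plates. In both replicates all 13 plates from TA52 to TA64 lie above 0, and the bars of TA76 to TA83 and of TA84 to TA91 lie below 0.

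By groups of 16 plates, TA52 to TA67 had medians of 0.21 (replicate I) and 0.11 (replicate II). TA68 to TA83 had -0.045 and -0.021, and TA84 to TA99 had -0.037 and -0.056. The difference of TA84 to TA99 minus TA52 to TA67 was -0.24 (replicate I) and -0.17 (replicate II), on average -0.20 ± 0.054 (SD, n = 2). An exact sign permutation test over 2 replicates cannot give a two-sided p under 0.5, which is the value it gave (exact p = 0.5, n = 2). Between TA84 to TA99 and TA68 to TA83 the differences were 0.0084 and -0.035, of opposite sign in the replicates.

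Over the 48 plate medians, the fitted slope was -0.071 per 10 plates in replicate I and -0.053 per 10 plates in replicate II. Pearson's r with plate number was -0.48 and -0.51, and Spearman's rho was -0.47 and -0.52. These coefficients describe plates that share the same arrays, and no p is given for them. The fall was not even along the range. In TA52 to TA64 all 13 plates had medians above 0 in both replicates, and the slope was 0.075 per 10 plates in replicate I and -0.013 in replicate II. In TA65 to TA99 only 9 of 35 plates lay above 0 in both, and the slope was -0.0045 and -0.019. The slope was thus small within TA65 to TA99 and of mixed sign within TA52 to TA64. The split between TA64 and TA65 was chosen after the values were seen. The tile median was 0.25 and 0.14 in TA52 to TA64, and -0.044 and -0.039 in TA65 to TA99.

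Plate by plate, 22 of the 48 medians were above 0 in both replicates, 20 were below 0 in both, and 6 had opposite signs. The medians ranged from -0.44 to 0.46 in replicate I and from -0.29 to 0.40 in replicate II. They correlated between replicates with Pearson's r of 0.83 and Spearman's rho of 0.82 over 48 plates. Limma on the medians of all plates called 9 of the 48 plates higher and 4 lower at an adjusted p of at most 0.05, where 22.9% of all 231 plates were called higher and 25.5% lower. The lower bound of the range came from these same calls, so nothing is read from the counts.

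The highest plate was TA57, with medians of 0.46 (replicate I) and 0.40 (replicate II). TA62 followed with 0.44 and 0.25, and TA68 with 0.35 and 0.21. The lowest plate was TA81, with medians of -0.44 (replicate I) and -0.29 (replicate II). TA93 had -0.27 and -0.20, and TA88 had -0.27 and -0.20 as well. These plates kept their side of 0 in both replicates, which their choice by the mean over both replicates makes likely. The replicates differed most at TA58, where replicate I had 0.35 and replicate II had 0.095, and in the other direction at TA77, with -0.25 and -0.047, both picked after their values were seen. Differences among plates held 11.8% of the variance between tiles (replicate I) and 8.41% (replicate II), so most of the variation was within plates.

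From TA61 to TA87 the plate medians went up and down with the parity of the plate number, a pattern seen first in the values and bounded after them. The 13 even plates had a mean plate median of 0.15 ± 0.17 (SD of plates) in replicate I, against -0.12 ± 0.14 in the 14 odd plates. In replicate II the even plates had 0.092 ± 0.098 and the odd plates -0.099 ± 0.12. Even minus odd was 0.27 (replicate I) and 0.19 (replicate II), on average 0.23 ± 0.058 (SD, n = 2). Of 26 steps from 1 plate to the next, 25 had the even plate above the odd one in replicate I, the exception being TA78 to TA79. In replicate II 25 of 26 did so too, the exception being TA75 to TA76.

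**Figure D2:**
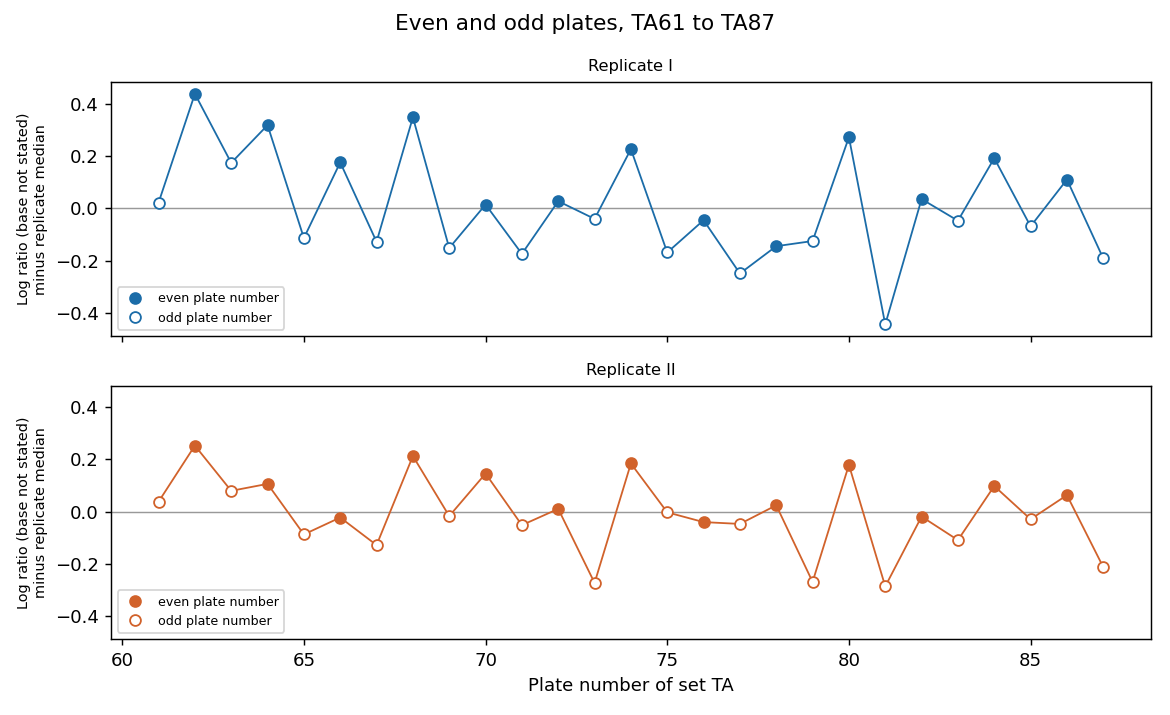
Median log ratio of plates TA61 to TA87 (vertical axis, minus the replicate median, log base not stated) by plate number (horizontal axis) in replicate I (upper panel) and replicate II (lower panel), with filled points for even and open points for odd plates. The even plates lie above their odd neighbours in 25 of 26 steps in each replicate.

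The whole distribution of tiles was displaced between even and odd plates of TA61 to TA87, not only its upper end. In replicate I the lower and upper quartiles were -0.21 and 0.55 in even plates, against -0.48 and 0.25 in odd plates. In replicate II they were -0.21 and 0.35 in even plates, against -0.40 and 0.22 in odd plates. The top 5% was the exception in replicate II, where it began at 0.68 in even plates and 0.69 in odd plates. All 8 rows of wells had the higher median in even plates, by 0.21 to 0.42 in replicate I and by 0.11 to 0.33 in replicate II. Across plate borders, the mean of the 12 nearest wells on the even side exceeded that on the odd side at 21 of 26 borders in replicate I and at 16 of 26 in replicate II. With the 6 nearest wells the even side was higher at 18 (replicate I) and 15 (replicate II) of the 26 borders. With the 1 nearest well it was higher at 21 and 18. Wells under -0.5 in both replicates numbered 48 of 1245 in even plates and 101 of 1344 in odd plates, and wells more than 0.5 above numbered 70 in even and 48 in odd plates. On the whole array, 6.94% of tiles lay under -0.5 and 10.7% above 0.5 in both replicates.

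Elsewhere in TA52 to TA99 the alternation was not seen. In TA52 to TA60 the even plate was above the odd one in 4 of 8 steps in each replicate. In TA88 to TA99 it was so in 3 of 11 steps in replicate I and 4 of 11 in replicate II, where even minus odd was -0.11 and -0.059. In TA01 to TA20 the even plate was above in 7 of 19 steps in replicate I and 11 of 19 in replicate II. In set TB it was so in 62 of 99 steps and 55 of 99 steps. What differs between even and odd plates was not tested. The fall along the range was present in even and in odd plates alike, with slopes per 10 plates, averaged over replicates, of -0.075 in even plates and -0.046 in odd plates.

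Among single tiles, limma on all 21743 tiles called 171 of the 4603 tiles higher (3.71%) and 137 lower (2.98%) at an adjusted p of at most 0.05. Over the whole array 8.24% of tiles were called higher and 3.88% lower. The contrast is the one that set the range, so these shares only describe it, and limma called 0 higher and 0 lower tiles here when the replicates were scaled to equal spread (549 and 391 at an unadjusted p under 0.05). By size, 29 tiles lay above 1 in both replicates and 12 lay under -1 in both. For the whole array these shares were 2.83% and 0.419%.

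Tiles called higher were gathered in the early plates. TA52 to TA59 held 92 of the 171 among its 768 tiles, a share above the 8.24% of the whole array. It also held 19 of the 29 tiles above 1 in both replicates. As a share of its 768 tiles, those 19 were slightly under the 2.83% of the whole array. In the later groups of 8 plates the share called higher ran from 1.69% in TA76 to TA83 to 2.36% in TA60 to TA67, far under the 8.24%. Tiles called lower were fewest in the early plates: 14 (1.82%) lay in TA52 to TA59 and 7 (0.917%) in TA60 to TA67. Each later group held 24 to 31 (3.13% to 4.04%), near the 3.88% of the whole array. TA52 to TA59 was also the group with the highest median.

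Tile TA93F12 had the highest mean of the called tiles, at 2.25 (replicate I) and 1.64 (replicate II), on average 1.94 ± 0.43 (SD, n = 2). It stood alone, since the well before it had 0.29 and 0.31 and the well after it -0.15 and -0.36. TA69D12 had 2.01 (replicate I) and 1.84 (replicate II), on average 1.93 ± 0.12 (SD, n = 2). It was also a single well, with 0.043 and 0.18 before it and -0.24 and -0.029 after it. Both lie in plates whose medians were below 0 in both replicates, and both lie in column 12, the last well of their rows.

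The lowest called tile, TA73H09, had -1.94 (replicate I) and -1.53 (replicate II), on average -1.73 ± 0.29 (SD, n = 2). Unlike TA93F12 and TA69D12, it stood among low wells. The well before it had -1.01 and -1.19, and the well after it -0.53 and -0.79. TA83A06 had -1.30 (replicate I) and -1.65 (replicate II), on average -1.47 ± 0.25 (SD, n = 2). Its neighbours were low too, with -0.74 and -1.09 before it and -0.63 and -0.57 after it. Most tiles above 1 in both replicates, like most under -1, had a neighbour past 0.5 on the same side, as given below.

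Some tiles differed widely between the replicates, and these were picked after their values were seen. TA87D11 had 2.80 in replicate I, the highest value of that replicate in TA52 to TA99, and 0.52 in replicate II, and it was among the 171 tiles called higher. TA57C11 went the other way, with -0.92 (replicate I) and 1.85 (replicate II), the largest difference of that direction. Wells TA59A06 to TA59A10 had 2.04, 1.94, 0.99, 1.32 and 1.15 in replicate II, while in replicate I they had -0.57, -0.56, 0.10, 0.064 and -0.16. In that stretch the difference between replicates was thus shared by neighbouring wells.

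**Figure D3:**
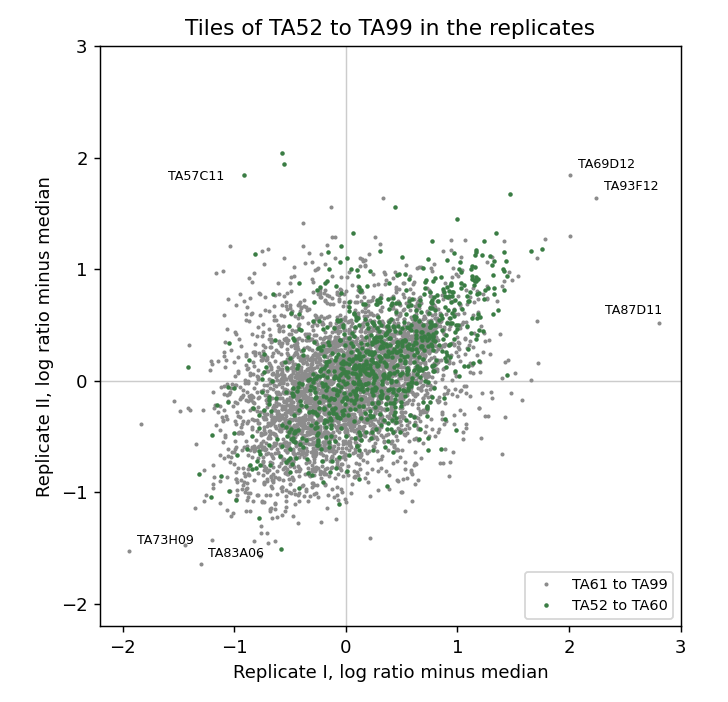
Log ratio of each of the 4603 tiles in replicate I (horizontal axis) and replicate II (vertical axis), both minus the replicate median, with TA52 to TA60 in green and TA61 to TA99 in grey. Named tiles at the upper right and lower left were extreme in both replicates, whereas TA87D11 and TA57C11 differed most between the replicates.

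Across the 4603 tiles, Pearson's r between the replicates was 0.44 and Spearman's rho 0.44, against 0.55 and 0.50 over all other tiles, which include the high plates. Among the plates with low ratios, r and rho were 0.40 and 0.35 in TA01 to TA20, and 0.30 and 0.29 in set TB. The tiles share arrays and neighbours, so these are descriptions. Within groups of 8 plates, r ran from 0.29 in TA76 to TA83 to 0.55 in TA52 to TA59. The replicates had the same sign in 3013 tiles (65.5%), against 67.3% over the whole array. Above 0.5 in both replicates lay 284 tiles (6.17%), and under -0.5 in both lay 239 (5.19%), below the shares of the whole array given above. In 87 tiles (1.89%, against 2.30% over the whole array) the replicates lay more than 0.5 from the median in opposite directions.

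Short runs of wells that were high in both replicates were found mostly in the first plates. A run was counted where at least 3 consecutive valued wells lay more than 0.5 above the median in each replicate. There were 20 such runs with 95 wells (2.06% of the tiles, against 7.23% in the whole array), of which 12 had 3 wells and the longest had 14. TA52 to TA60, with 862 tiles, held 14 of the runs and 72 of the wells. The remaining 39 plates, with 3741 tiles, held 6 runs with 23 wells. The share of wells in high runs was thus slightly above the 7.23% of the whole array in TA52 to TA60. In the remaining plates it was far below that share. The cut at TA60 was chosen after the values were seen. Of the 171 tiles called higher, 83 stood in these runs.

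The longest run spanned TA59G01 to TA59H02. Its 14 wells had a mean of 0.91 (replicate I) and 0.86 (replicate II), with single values from 0.56 to 1.25. Both replicates were highest at TA59G05, with 1.24 and 1.25, and lowest within row G at TA59G11, with 0.62 and 0.56. The well before the run had 0.32 and 0.0019, and the well after it -0.054 and 0.37. The highest and the lowest well of row G were thus the same in both replicates.

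Plate TA57, the highest by median, held 5 of the runs, among them TA57F01 to TA57F08 with means of 1.02 (replicate I) and 1.04 (replicate II). The run TA57E05 to TA57E11 of the row before had 1.09 (replicate I) and 0.77 (replicate II). Only TA57E12, with 0.59 and 0.45, separated these runs. TA55G02 to TA55G07 had 1.23 (replicate I) and 0.88 (replicate II) over 6 wells. The 5 runs of TA57 held 24 of its 96 wells.

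Among the plates after TA60 the longest high run was TA70C09 to TA70D04, with 8 wells and means of 1.25 (replicate I) and 0.89 (replicate II). Its highest well in both replicates was TA70D02, with 1.78 and 1.27. The well before it had -0.15 and -0.38, so the run began sharply. The median of the whole plate was 0.015 (replicate I) and 0.15 (replicate II), far under the run. The only other runs after TA64 were of 3 wells each, in TA71, TA78 and TA95, chosen by position after their values were seen.

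Low runs were fewer and shorter: 8 runs with 29 wells (0.630%, against 1.14% in the whole array), the longest of 5 wells. TA75F07 to TA75F11 had means of -0.83 (replicate I) and -1.04 (replicate II) over 5 wells. TA83A03 to TA83A07, which holds TA83A06, had -0.79 and -1.01 over 5 wells. TA73H07 to TA73H10, which holds TA73H09, had -1.07 and -1.13 over 4 wells. The runs TA58G05 to TA58G07 and TA93G06 to TA93G08 had 3 wells each, with -0.96 and -0.86 in the first and -0.76 and -1.01 in the second. At TA58G08, right after the first of these, the values were 1.15 and 0.86, a step of the same direction in both replicates.

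**Figure D4:**
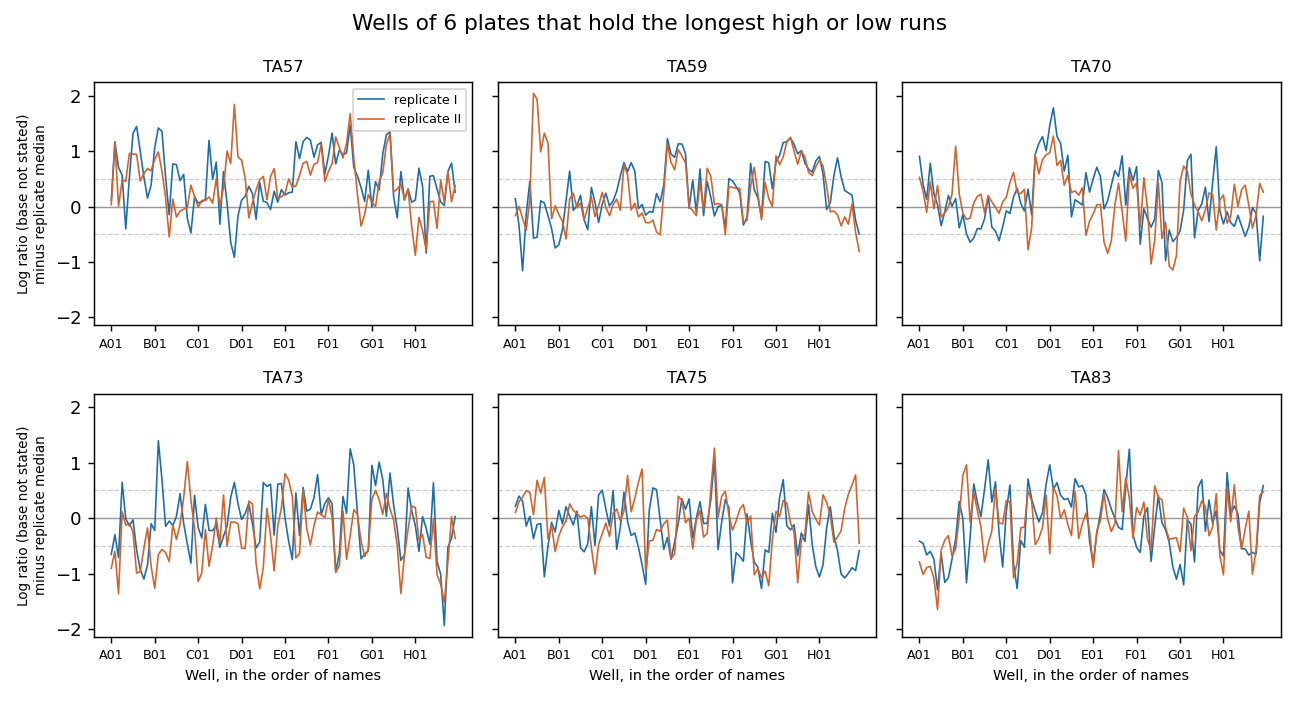
Log ratio of the wells (vertical axis, minus the replicate median, log base not stated) in the order of names (horizontal axis) for 6 plates that hold long high runs (TA57, TA59, TA70) or low runs (TA73, TA75, TA83), with replicate I in blue and replicate II in orange and dashed lines at 0.5 and -0.5. In row G of TA59 both replicates peak near 1.25, while in row A of the same plate only replicate II is high.

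Low runs had no such gathering in the first plates, since 1 of the 8 lay in TA52 to TA60. Of the 137 tiles called lower, 22 (16.1%) stood in low runs, and of the 171 called higher, 83 (48.5%) stood in high runs. This difference in shares was not tested. With the plate medians removed, 12 high and 12 low runs were counted. Of the 29 tiles above 1 in both replicates, 21 had a neighbour more than 0.5 above the median in both, and of the 12 under -1, 8 had such a low neighbour. Of any tiles of TA52 to TA99, 10.8% had such a high neighbour and 9.86% such a low one. Over the whole array, 578 of 615 tiles above 1 and 59 of 91 under -1 had a neighbour of that kind.

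Likeness between wells fell off within a few wells. Next wells correlated with Pearson's r of 0.45 within replicate I and 0.44 within replicate II, and r was 0.24 from a well of replicate I to the next well of replicate II. At 3 wells apart these were 0.18, 0.13 and 0.12, at 12 wells 0.096, 0.080 and 0.065, and at 96 wells, a whole plate, 0.018, -0.013 and -0.0073. The difference between the replicates was also alike in next wells, with r of 0.37, but this had dropped to 0.053 at 3 wells. From 3 to 24 wells apart, r was 0.065 to 0.14 across replicates, taken in either order, against 0.075 to 0.18 within them.

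**Figure D5:**
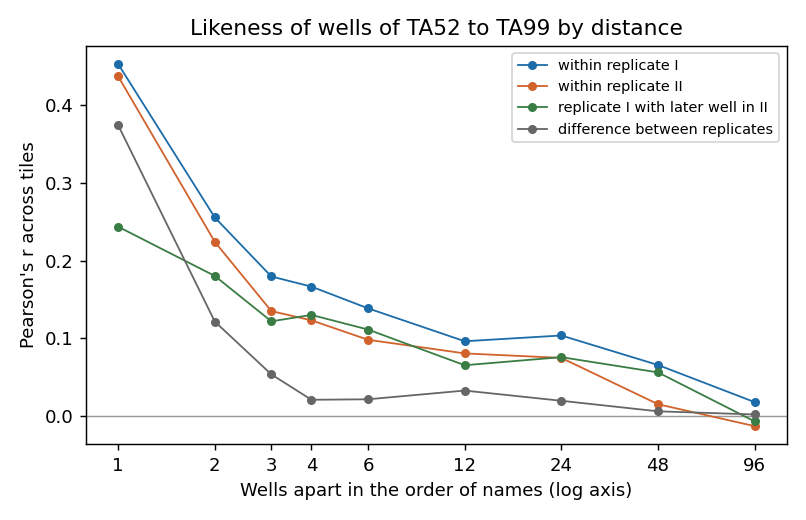
Pearson's r between tiles of TA52 to TA99 (vertical axis) by their distance in wells (horizontal axis, log scale), within replicate I, within replicate II, from replicate I to a later well of replicate II, and for the difference between the replicates. The difference drops from 0.37 at 1 well to 0.053 at 3 wells, while the correlation across replicates drops from 0.24 to 0.12.

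Position within the plate moved the values little. After removal of plate medians, the medians of the 8 rows lay between -0.056 and 0.047, and those of the 12 columns between -0.11 and 0.066, over both replicates. The 1725 wells at the rim of the plates had -0.039 (replicate I) and -0.0082 (replicate II), against 0.017 and 0.0034 in the 2878 inner wells.

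Of the other plates with low ratios, only TA01 to TA20 and set TB were compared. Set beside them, TA52 to TA99 was slightly higher in both replicates. Its median of 0.041 and 0.016 compares with -0.14 and -0.11 in TA01 to TA20, a difference of 0.16 ± 0.035 (SD, n = 2). Set TB had -0.17 and -0.14, and TA52 to TA99 lay above it by 0.18 ± 0.040 (SD, n = 2). Both differences had the same sign in each replicate and an exact sign permutation p = 0.5, the smallest that 2 replicates allow, so neither is called. Against TA35 to TA51, with 0.76 and 0.53, the difference was -0.62 ± 0.14 (SD, n = 2), which the choice of plates fixed. TA65 to TA99 alone, at -0.044 and -0.039, lay closer to TA01 to TA20 and set TB than TA52 to TA64 did.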

How the data were processed

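The deposited table gives 1 score per spot and array, a log ratio of unstated base and numerator. How the authors made the deposited values (scanner, background correction, normalization) is not given in the sources used here, and that could change every level. Scores of each replicate were centred on the median over 21743 tiles, without loess or quantile steps. Tiles and plate medians were tested against 0 by limma 3.58.1 (R 4.3.3; an intercept per feature and empirical Bayes variances), fitted on the whole table with Benjamini-Hochberg adjustment, two-sided. The tile fit had 1 residual and 21.7 prior degrees of freedom. Its code was tried on simulated independent tiles, whereas the real tiles resembled their next wells, so the trial does not bear on the calls here. The members and lists were chosen with earlier results of these data known. Named tiles were at most 2 per direction (highest and lowest mean among called tiles). Named runs were the 5 longest per direction and named plates the 3 highest, the 3 lowest and both ends. Groups of 8 plates, the cut at TA60, the split at TA64, plate parity and opposite wells were added after seeing the data. The other steps used pandas 2.3.3 and numpy 2.4.6 (values), SciPy 1.17.1 (modes) and matplotlib 3.10.9 (figures) in Python 3.11.15.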

Additional observations from a re-analysis of the deposited data

How the results depend on the processing

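Of 87 alternatives for 14 results, 35 kept a count within 1.5 times or a value within 1 SD of the replicates. The other 52 moved further, and whether a sign reversed was not scored. For the correlation of the replicates the limit was instead a 95% interval that treats tiles as independent. Scaling to equal deviations cannot change a correlation, so it kept both correlations by construction. Leaving out a replicate gave a median of 0.016 to 0.041, a slope of -0.071 to -0.053, a late minus early difference of -0.24 to -0.17, a correlation of next wells of 0.44 to 0.45 and an even minus odd difference of 0.19 to 0.27; these lie within 1 SD by construction. Counts that then need only 1 replicate to pass were 88 to 173 tiles above 1, 83 to 91 under -1, 49 to 90 high runs and 55 to 57 low runs. The median (0.029) was -1.25 with no centring, 0.094 with centring on the mode and 0.13 with centring on tiles outside the 3 high stretches. The slope (-0.062) was -0.049 without TA57, TA62 and TA68, -0.012 in TA65 to TA99 alone, -0.046 in odd and -0.075 in even plates; even minus odd (0.23) was 0.11 over all 48 plates. Tiles called higher and lower by limma (171 and 137) became 55 and 25 when 0.01 was asked of the adjusted p, 0 and 0 with equal median absolute deviations (549 and 391 unadjusted), 2 and 4226 with no centring, and 270 and 253 with trend and robust prior; the mode gave 76 lower. Plates called higher and lower by limma (9 and 4) were 1 and 0 at 0.01 (13 and 6 unadjusted at 0.05), 16 and 10 with equal deviations, 0 and 48 with no centring (0 higher unadjusted), and 15 and 10 with trend and robust prior; the mode gave 1 lower. Tiles above 1 and under -1 (29 and 12) were 0 and 2421 with no centring and 105 and 69 at 0.75. High and low runs (20 and 8) were 0 and 254 with no centring, 52 and 42 from 2 wells, 8 and 3 from 4 wells, and 8 and 3 at 0.75; low runs were 4 with the mode. High runs were 12 with plate medians removed and 6 without TA52 to TA60. The correlation of replicates (0.44) was 0.40 with plate medians removed and 0.40 without TA52 to TA60, and that of next wells was 0.39 with plate medians removed. Without centring nearly all values lie under 0, and a stricter rule can only lower a count; for the others the cause was not tested. Limma calls, and the correlation of the replicates, could not be made without either replicate. A dye term and arrays of 1 orientation were not run, since swap columns were identical. No paired analysis was possible because the study has 1 group. Log ratios alone do not show how far spots stood above background.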
